A study of Mus musculus with 8 samples.

Results

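The genes described here are 10 components of pyroptosis and necroptosis, the lytic forms of programmed cell death: Nlrp3, Aim2, Pycard, Casp1, Casp4, Gsdmd, Zbp1, Ripk3, Mlkl and Casp8. They were taken by symbol for their known roles, and all 10 were found among the 25239 gene symbols counted in each liver. Whole livers of 4 control and 4 Smo-KO mice had been profiled by bulk RNA-Seq. All 8 were adult males of the C57Bl6/J strain carrying a floxed Smo gene (Smo tm2Amc/J, Smo fl/fl), and all were fed a choline-deficient, L-amino acid-defined high-fat diet (CDA-HFD), which induces steatohepatitis, for 6 weeks. All received an AAV8 vector by tail vein 1 week before sacrifice. In control mice it was AAV8-TBG-Luciferase, and in Smo-KO mice AAV8-TBG-Cre Recombinase, which removes the floxed part of Smo, the transducer of the Hedgehog signal. The TBG promoter is active in hepatocytes, so macrophages, lymphocytes, endothelial and stellate cells keep an intact Smo gene in either group.

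Pyroptosis begins when a sensor such as NLRP3 or AIM2 gathers the adaptor ASC (encoded by Pycard) and pro-caspase-1 into an inflammasome. Caspase-1, or caspase-11 (encoded by Casp4) after binding of bacterial lipopolysaccharide, cuts gasdermin D, whose N-terminal part forms pores in the plasma membrane. Caspase-1 also matures IL-1β and IL-18. In necroptosis, RIPK3 is activated by RIPK1 or by the nucleic acid sensor ZBP1 and phosphorylates MLKL, which then breaks the plasma membrane, while caspase-8 with cFLIP holds this route in check. In fatty liver disease the inflammasome genes are known mainly from macrophages, and several of the 10 genes are inducible by interferons. All these steps are switched on by protein cleavage, assembly or phosphorylation, which counts of RNA do not measure.

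Gene counts totalled 8203299 to 9999732 reads a liver, with no detectable difference between the groups (two-sided p = 0.257 in an exact permutation test, 4 livers a group). Levels are given as CPM, the counts scaled to the library size after TMM scaling. At this depth 3 reads correspond to 0.297 to 0.366 CPM. The 10 genes had between 19 and 1109 reads in every liver, and all 10 passed the filter on low counts. Alb, the albumin gene of hepatocytes, was at 16570 CPM in control livers, and the share of hepatocyte RNA in the libraries was not measured. Smo, the targeted gene, was at 8.40 ± 0.270 CPM in control and 4.56 ± 0.765 CPM in Smo-KO livers (SD, n = 4 each), and its values did not overlap between the groups. On the log2 scale the difference was -0.88 (standard error 0.16), for which edgeR gave an adjusted p of 0.0957 and DESeq2 one of 0.00613. The exact permutation test of the CPM gave a two-sided p of 0.0286, the smallest possible with 4 livers a group.

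None of the 10 genes passed edgeR's quasi-likelihood test after adjustment (threshold 0.05), and neither did any other of the 12977 genes tested (0%); the lowest adjusted p was 0.0785. At an unadjusted p under 0.05, 1 of the 10 genes (Mlkl, lower in Smo-KO livers) was found, where 13.8% of all genes tested lay under it (7.15% lower and 6.70% higher in Smo-KO livers). DESeq2's Wald test, which called 1.26% of all genes at an adjusted p under 0.05, called 0 of the 10, and Mlkl was again the 1 gene with an unadjusted p under 0.05. In 0 of the 10 genes did the values of the groups separate, against 7.37% of all genes (4.34% lower in Smo-KO livers). Of the 10, 6 were lower and 4 higher in Smo-KO livers on average (50.1% of all genes were lower), and their median log2 fold change was -0.05, against -0.00084 over all genes. The median size of the change regardless of sign was 0.21 on the log2 scale for the 10 genes and 0.13 for all genes. The reads came from whole liver, so fewer cells of a type and less RNA per cell cannot be told apart.

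**Figure D1:**
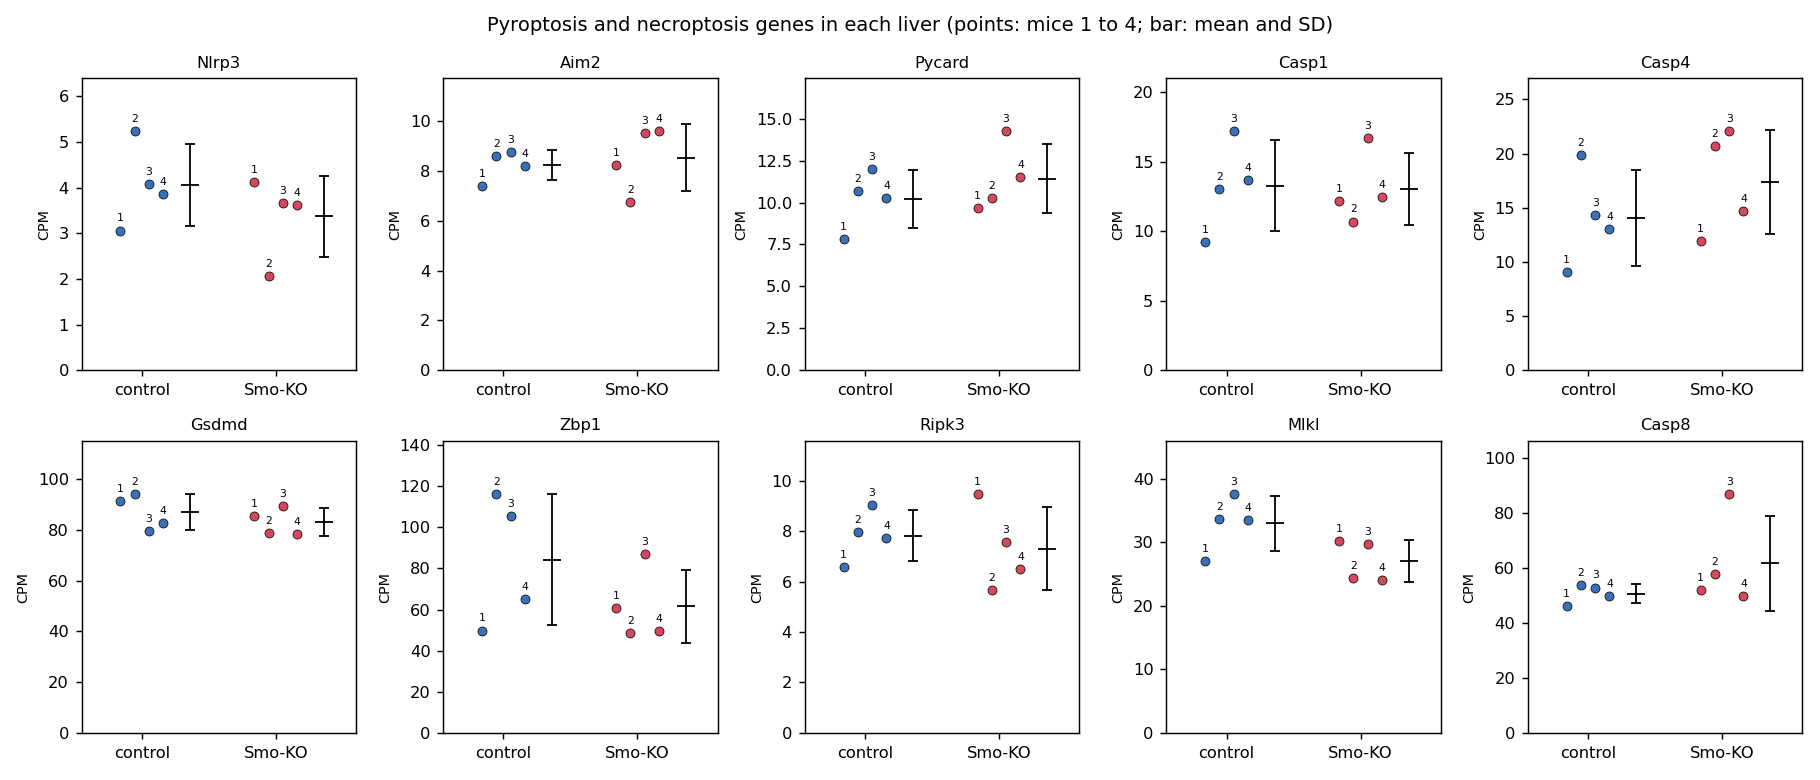
Level (CPM, linear axis from 0) of each gene in each liver. Points are mice 1 to 4 of each group and the bar beside them is the mean with the SD (n = 4). The groups overlap in all 10 panels; control mouse 1 has the lowest control value in 9 of them, and Smo-KO mouse 3 stands above the rest for Casp8 at 87.0 CPM.

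Among the sensors, Nlrp3 was the least abundant of the 10 genes. Nlrp3 (chromosome 11, 59541569 to 59566955, GRCm38) was at 3.06, 5.24, 4.07 and 3.86 CPM in control mice 1 to 4 and at 4.12, 2.07, 3.66 and 3.62 CPM in Smo-KO mice 1 to 4. The lowest value belonged to Smo-KO mouse 2 and the highest to control mouse 2, with the others intermingled. The log2 fold change was -0.27 (standard error 0.24, 95% confidence interval -0.79 to 0.25, adjusted p = 0.657 in edgeR's test), and without Smo-KO mouse 2 it was -0.09.

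Aim2, the sensor of DNA in the cytosol (chromosome 1, 173349547 to 173466040), was at 7.37, 8.60, 8.74 and 8.21 CPM in control mice and 8.25, 6.76, 9.51 and 9.59 CPM in Smo-KO mice. The Smo-KO livers held both the lowest and the highest value. Its log2 fold change was 0.05 (standard error 0.15, 95% confidence interval -0.28 to 0.38), and its sign turned without Smo-KO mouse 3 or without Smo-KO mouse 4.

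Pycard (chromosome 7, 127991373 to 127993867), whose product links sensors to caspase-1, was at 7.83, 10.7, 12.0 and 10.3 CPM in control and 9.69, 10.3, 14.3 and 11.5 CPM in Smo-KO mice. All Smo-KO values lay above that of control mouse 1, and that of Smo-KO mouse 3 above every control value. The log2 fold change was 0.16 (standard error 0.17, adjusted p = 0.718 in edgeR's test). With 1 mouse left out it ran from 0.03 (without Smo-KO mouse 3) to 0.25 (without control mouse 3). In the GENCODE M21 annotation, 485 bases (12.8%) of the Pycard exons overlap Gm45205 on the opposite strand, a gene not listed in the count files, and the sources used here do not say whether strand was used in counting.

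The inflammatory caspase genes Casp1 (chromosome 9, 5298517 to 5307281) and Casp4 (chromosome 9, 5308849 to 5336791) are neighbours and paralogs. Casp1 was at 9.19, 13.0, 17.2 and 13.7 CPM in control and 12.2, 10.7, 16.7 and 12.5 CPM in Smo-KO mice. The whole Smo-KO range lay inside the control range. Its log2 fold change of -0.04 (standard error 0.19, 95% confidence interval -0.44 to 0.37) was the nearest to 0 of the 10, and it changed sign without control mouse 3, Smo-KO mouse 1 or Smo-KO mouse 2.

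Casp4 was at 9.07, 19.8, 14.3 and 13.1 CPM in control and 12.0, 20.7, 22.1 and 14.7 CPM in Smo-KO mice. Control mouse 2 was close to the higher Smo-KO mice, and Smo-KO mouse 1 was below 3 of the control mice. With a log2 fold change of 0.30 (standard error 0.23, 95% confidence interval -0.20 to 0.80, adjusted p = 0.597 in edgeR's test), the estimate depended on the mice included. It ran from 0.14 without control mouse 1 to 0.51 without control mouse 2, where the unadjusted p was 0.0423, again short of an adjusted p of 0.05 (0.392). In edgeR's test with a block for replicate numbers it was 0.31, with an unadjusted p under 0.05 and an adjusted p of 0.261. The labels do not say what these numbers stand for. The largest Casp4 value was 2.18-fold the smallest within the control group alone.

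Transcription of Casp4 and Nlrp3 is primed through NF-κB in macrophages. Some of the stretches that hold the letters of its binding motif are shown here because these genes are induced that way. Further matches at chr9:5308820-5308859 (Casp4) and chr11:59542663-59542702 (Nlrp3) are not printed. Promoter sequences (250 bases before to 50 after a start site, RefSeq, GRCm38.p6) were found for 8 of the 10 genes, the others being Gsdmd and Zbp1. The NF-κB letters, GGG and CC with any 5 bases between them, searched on both strands, were present for 3 of the 8 genes, and 53.5% of 27025 genes have them in such a promoter. Casp4 held GGGATTTCCC at -92 to -83, counting the start site as 0, or at -103 to -94 from a further start site of the gene. It overlaps matches that begin 1 base earlier and 1 base later. This string was picked after the promoter was read, and 31 of all 32851 promoters contain it (0.0944%). Capitals mark the motif letters, and all lines read 5′ to 3′ on the plus strand, on which the 3 genes lie.
Casp4, chr9:5308742-5308781: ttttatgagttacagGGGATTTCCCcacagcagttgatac
Casp4, chr9:5308795-5308834: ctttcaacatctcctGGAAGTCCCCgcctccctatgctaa
Casp1, chr9:5298344-5298383: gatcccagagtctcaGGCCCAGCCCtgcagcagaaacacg
Nlrp3, chr11:59541368-59541407: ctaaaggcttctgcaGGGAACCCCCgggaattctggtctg
The letters of the interferon-stimulated response element (ISRE), GAAA and GAAA with any 2 bases between them, were in 0 of the 8 genes' windows (3.99% of all genes have them), and those of the GAS element, TTC and GAA with any 3 bases between them, also in 0 of 8 (9.55% of all genes). No match says only that these letters are not in this window.

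Gsdmd (chromosome 15, 75862144 to 75867408), the pore-forming substrate of both caspases, was the most abundant of the 10 genes by the mean of either group. In control mice 2 and 3, Zbp1 was higher (116 and 106 CPM). By edgeR's estimate of the variation between mice (9.81%) Gsdmd was also the most even of the 10 genes. Within the control group alone, the CPM of Casp8 and Aim2 varied less (SD 6.74% and 7.48% of the mean, against 7.97% for Gsdmd). Gsdmd was at 91.4, 94.2, 79.6 and 82.7 CPM in control and 85.6, 78.5, 89.4 and 78.4 CPM in Smo-KO mice. Values of the groups were interleaved. The log2 fold change was -0.07 (standard error 0.09, adjusted p = 0.776 in edgeR's test), and its 95% confidence interval, from -0.26 to 0.13, corresponds to a Smo-KO level between 0.834 and 1.09 times that of control livers. This was the narrowest interval of the 10.

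On the necroptosis side, Zbp1 had the lowest estimate and the widest spread. Zbp1 (chromosome 2, 173206612 to 173218959), the interferon-inducible sensor of Z-form nucleic acids that recruits RIPK3, was at 49.8, 116, 106 and 65.2 CPM in control mice and at 60.9, 48.5, 86.8 and 49.6 CPM in Smo-KO mice. Control mice 2 and 3 were above all Smo-KO mice, whereas control mouse 1 was level with the 2 lowest Smo-KO mice. The group means were 84.2 ± 31.8 and 61.5 ± 17.8 CPM (SD, n = 4 each), with a log2 fold change of -0.46 (standard error 0.25, 95% confidence interval -1.0 to 0.08, adjusted p = 0.437 in edgeR's test). An exact permutation test of the CPM gave a two-sided p of 0.200. The unadjusted p, 0.0908 with all mice, was 0.0134 without control mouse 1 and 0.0175 without Smo-KO mouse 3, and 0.313 without control mouse 2.

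Ripk3, the kinase of the necrosome (chromosome 14, 55784995 to 55788857), was at 6.58, 7.97, 9.04 and 7.72 CPM in control and 9.48, 5.67, 7.56 and 6.50 CPM in Smo-KO mice. Smo-KO mouse 1 had the highest and Smo-KO mouse 2 the lowest of all 8 values. The log2 fold change of -0.10 (standard error 0.18, 95% confidence interval -0.49 to 0.29) was 0.0043 without Smo-KO mouse 2.

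Mlkl (chromosome 8, 111311255 to 111338479), the executioner of necroptosis, was at 27.1, 33.7, 37.7 and 33.5 CPM in control and 30.2, 24.4, 29.8 and 24.1 CPM in Smo-KO mice. All Smo-KO mice were below control mice 2, 3 and 4, and control mouse 1 lay among the Smo-KO mice. The mean was 33.0 ± 4.37 CPM in control and 27.1 ± 3.31 CPM in Smo-KO livers (SD, n = 4 each), or 82.2% of the control level. Its log2 fold change was -0.28 (standard error 0.12, 95% confidence interval -0.55 to -0.02, unadjusted p = 0.0362, adjusted p = 0.324 in edgeR's test), and the exact permutation test of the CPM gave a two-sided p of 0.0857, where 4 mice against 4 can reach 0.0286. Leaving out 1 mouse moved the unadjusted p between 0.00759 (without control mouse 1) and 0.122 (without control mouse 3). It was over 0.05 in 5 of the 8 such fits, and the direction was the same in all of them.

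Casp8 (chromosome 1, 58795233 to 58847503), the protease that triggers apoptosis and restrains necroptosis, was at 46.2, 53.7, 52.9 and 49.9 CPM in control and 52.0, 57.9, 87.0 and 49.9 CPM in Smo-KO mice. Smo-KO mouse 3 was far above every other liver, while the other 3 Smo-KO mice spanned much the same levels as the control mice. The log2 fold change was 0.28 (standard error 0.15, 95% confidence interval -0.05 to 0.62, adjusted p = 0.439 in edgeR's test), and without Smo-KO mouse 3 it was 0.07. The unadjusted p, 0.0924 with all mice, was 0.0452 without Smo-KO mouse 1 (log2 fold change 0.36), 0.0371 without Smo-KO mouse 4 (0.37) and 0.493 without Smo-KO mouse 3. Before scaling, Smo-KO mouse 3 held 713 Casp8 reads, against 407 to 532 in the other livers, although its library was the smallest (8203299 reads). The part of library size in its Casp8 value was not tested.

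**Figure D2:**
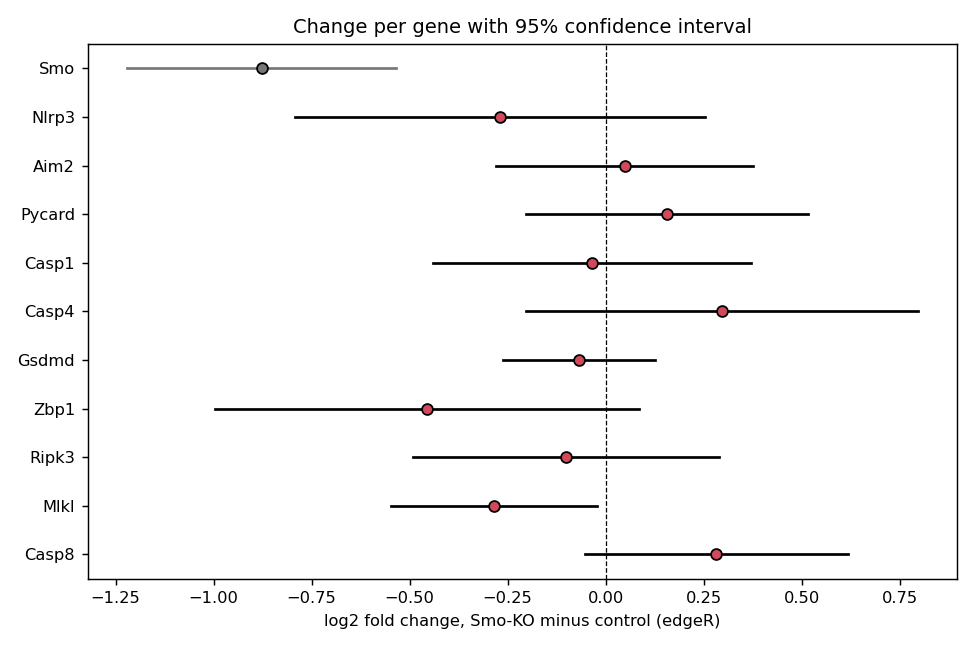
Log2 fold change (Smo-KO minus control) of the 10 genes and of Smo, with the 95% confidence interval from edgeR's quasi-likelihood test (4 mice per group). The intervals of 9 of the 10 genes cross 0; that of Mlkl runs from -0.55 to -0.02, and that of Smo, at -0.88, lies wholly below 0.

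Per kilobase of annotated exons, Gsdmd was again the most abundant in control livers, at 36.6 ± 2.91 CPM per kb (SD, n = 4). Zbp1 followed at 23.9 ± 9.01, Casp8 at 17.5 ± 1.18, Mlkl at 14.3 ± 1.90 and Casp1 at 8.86 ± 2.19 CPM per kb. Casp4 (3.79 ± 1.20), Ripk3 (3.41 ± 0.441), Pycard (2.69 ± 0.461) and Aim2 (2.35 ± 0.176) came next, and Nlrp3 was the lowest at 1.00 ± 0.222 CPM per kb. The neighbours Zbp1 and Casp8, Casp4 and Ripk3, and Pycard and Aim2 differed by less than the larger of their SDs. The executioners Gsdmd and Mlkl were thus each present at a higher level per length than the sensors Nlrp3 and Aim2. The sensor Zbp1 lay between Gsdmd and Mlkl. The values of Casp4 and Zbp1 depend on the transcript chosen. With the longest protein-coding transcript, Casp4 was at 9.80 CPM per kb, and Zbp1 at 42.3 CPM per kb.

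The 10 genes differed widely in how much they varied between mice. Biological coefficients of variation, which edgeR estimates after counting error is set aside, were above the median of all genes (12.0%) in 7 of the 10 genes. A median has as many genes above it as below it, and the genes were not matched for level, so this count is a description only. Zbp1 had 24.7%, higher than in 96.2% of the genes tested, and Casp4 22.0%. Gsdmd was at the other end with 9.81%. Control mouse 1 had the lowest control value in 9 of the 10 genes, all but Gsdmd, where this mouse was the lowest in 30.8% of all genes tested. In the wider lists below, it was the lowest control in 12 of 19 genes that prime or license NLRP3 and in 11 of 20 interferon inputs. Among inflammasome sensors and adaptors it was the lowest in 6 of 15. These 6 include Nlrp3, Aim2 and Pycard, 3 of the 10 genes already counted. Control mouse 1 also had the smallest library of the controls, with 9177277 reads on genes (8817331 after scaling). The part of this in its values was not tested. Among Smo-KO mice, number 3 was the highest in 6 of the 10 genes (25.9% of all genes) and number 2 the lowest in 5 (25.5% of all genes). These are descriptions of 8 livers, and the genes of 1 liver are not independent of each other.

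**Figure D3:**
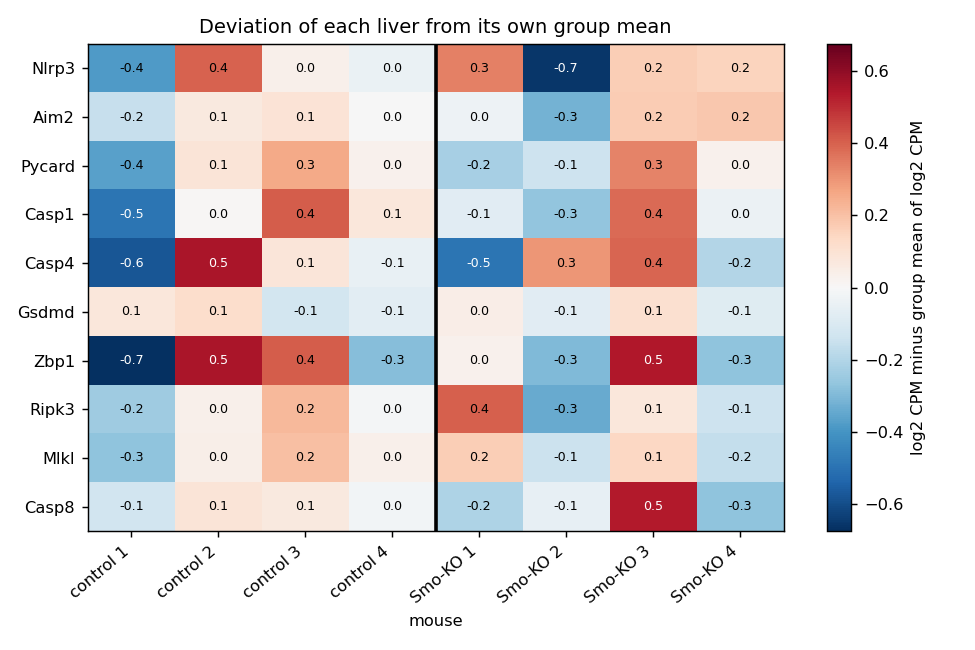
Deviation of each liver from the mean of its own group (log2 CPM; red above, blue below) for the 10 genes, with controls left of the line and Smo-KO mice right of it. Control mouse 1 is below its group mean in 9 genes and Smo-KO mouse 3 is above it in all 10, while Gsdmd is nearly level across mice.

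The list of interferon inputs held 22 genes upstream of or induced beside Zbp1. They encode interferons, receptors, kinases, DNA-sensing proteins, transcription factors and guanylate-binding proteins. Of the 20 tested, 15 were lower in Smo-KO livers, 5 of them at an unadjusted p under 0.05, and 0 were higher at that level. Over all genes tested, 50.1% were lower, 7.15% were lower at that level and 6.70% were higher at it, and the counts of this and the following lists stand beside these shares without a test. The median log2 fold change was -0.09. Irf1, a transcription factor that acts on Casp1 and Gbp genes, had a log2 fold change of -0.49 (adjusted p = 0.132 in edgeR's test and 0.0122 in DESeq2's) and groups that did not overlap. Gbp2, whose product helps expose bacterial lipopolysaccharide to caspase-11, had one of -0.74. The type I receptor genes Ifnar1 and Ifnar2 had log2 fold changes of 0.17 and 0.04, and Irf7 one of -0.14. Reads of the closely related guanylate-binding protein genes may be split between copies, so their values are uncertain.

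Around the sensors, the list of 16 inflammasome sensors and adaptors had 15 genes tested, with 5 lower and 10 higher in Smo-KO livers, 1 of each at an unadjusted p under 0.05. Their median log2 fold change was 0.06. Dpp9, a peptidase that restrains the NLRP1 inflammasome, was at 85.5 ± 8.11 CPM in control and 66.8 ± 9.75 CPM in Smo-KO livers (log2 fold change -0.35 with a standard error of 0.11; adjusted p = 0.219 in edgeR's test). Naip5, a receptor for flagellin with close copies in the genome, had a log2 fold change of 0.40 (adjusted p = 0.282 in the same test of edgeR), and Nlrp6 one of 0.36.

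Of 21 genes that prime or license NLRP3, 19 were tested, 10 lower and 9 higher, with 1 lower and 2 higher at an unadjusted p under 0.05 and a median log2 fold change of -0.0017. The exception in size was Txnip, the thioredoxin-binding protein that can bind NLRP3 and is also induced by glucose. Txnip was at 96.3 ± 15.2 CPM in control and 185 ± 31.2 CPM in Smo-KO livers (SD, n = 4 each), with a log2 fold change of 0.94 (standard error 0.14; adjusted p = 0.0785 in edgeR's test and 6.91e-07 in DESeq2's), and its groups did not overlap. Casp12, a caspase of the same cluster on chromosome 9, had a log2 fold change of 0.85 (standard error 0.33) with overlapping groups, and Ptpn22, a phosphatase of immune cells, one of -0.55 without overlap. The receptor Tlr4 (0.09), its adaptor Myd88 (-0.0017) and Nek7, the kinase that binds NLRP3 (0.06), were close to 0.

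Downstream, the gasdermin and pore repair list had 10 of 18 genes tested, with 6 lower and 4 higher and 0 at an unadjusted p under 0.05. The 7 gasdermins of the A and C groups held at most 1 read in all 8 livers together, and Pjvk, a further family member, 6 reads. Gsdmd and Gsdme were the gasdermins that passed the filter on low counts. Gsdme, which encodes gasdermin E, was at 10.5 ± 0.662 CPM in control and 8.98 ± 1.50 CPM in Smo-KO livers, a log2 fold change of -0.21. Ninj1, which ruptures the membrane after pores have formed, was abundant at 275 ± 14.9 and 257 ± 23.5 CPM. Vps4a (-0.17), an ATPase of membrane repair, and Anxa1 (0.33) had the smallest p-values of the list.

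Among 17 inflammatory caspases and IL-1 family genes, 14 were tested, 8 lower and 6 higher, with 1 lower and 3 higher at an unadjusted p under 0.05. The cytokine genes whose products caspase-1 matures did not pass the test, with Il1b at 10.2 ± 2.91 and 8.75 ± 1.46 CPM (log2 fold change -0.22, standard error 0.20) and Il18 at 14.1 ± 1.90 and 14.9 ± 2.52 CPM (0.08, standard error 0.15). Il18bp, the secreted inhibitor of IL-18, was at 66.4 ± 8.38 CPM in control and 48.6 ± 4.74 CPM in Smo-KO livers, without overlap (log2 fold change -0.45 with a standard error of 0.11; adjusted p = 0.146 in edgeR's test and 0.0351 in DESeq2's). The IL-1 receptor gene Il1r1 (0.41) and Hmgb1 (0.32), whose product is released by dying cells, were higher at an unadjusted p under 0.05, as was Casp12, which this list shares with the one before the gasdermins.

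The necrosome list, which holds Ripk3, Mlkl, Zbp1 and Casp8 themselves, had all 17 genes tested. Of these, 14 were lower in Smo-KO livers, 4 of them at an unadjusted p under 0.05 (7.15% of all genes tested), and 0 were higher at that level; the median log2 fold change was -0.08, and -0.05 without the 4 genes named. Beside Mlkl the 3 others were Ticam1, the adaptor (TRIF) of TLR3 and TLR4 that engages RIPK3 (log2 fold change -0.49 with a standard error of 0.14; adjusted p = 0.190 in edgeR's test), Cflar, which encodes cFLIP, the partner of caspase-8 (-0.30, standard error 0.10), and Pgam5, a phosphatase of mitochondria (-0.29, standard error 0.10). The groups of Cflar and Pgam5 did not overlap. Ripk1, the upstream kinase, was at 46.8 ± 2.04 and 48.0 ± 2.80 CPM, and Fadd at 20.1 ± 1.12 and 19.5 ± 2.05 CPM.

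Of 28 genes of the TNF receptor complex and its brakes, 27 were tested, 17 lower and 10 higher, with 4 lower and 0 higher at an unadjusted p under 0.05. These 4 were Tnfsf10, the death ligand TRAIL (log2 fold change -0.29), Spata2, an adaptor of the deubiquitinase CYLD (-0.27), Mapkapk2, a kinase that inhibits RIPK1 (-0.23), and Birc3, the ubiquitin ligase cIAP2 (-0.23). In the apoptosis list 23 of 24 genes were tested, 13 lower and 10 higher, with 1 lower and 2 higher at that level. Bak1, which perforates the outer membrane of mitochondria, was at 50.1 ± 4.48 CPM in control and 38.1 ± 4.71 CPM in Smo-KO livers, without overlap (log2 fold change -0.39 with a standard error of 0.11; adjusted p = 0.172 in edgeR's test). The BH3-only genes Bmf (0.50) and Bad (0.26) were higher, and the caspase gene Casp6 had a log2 fold change of -0.0082.

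**Figure D4:**
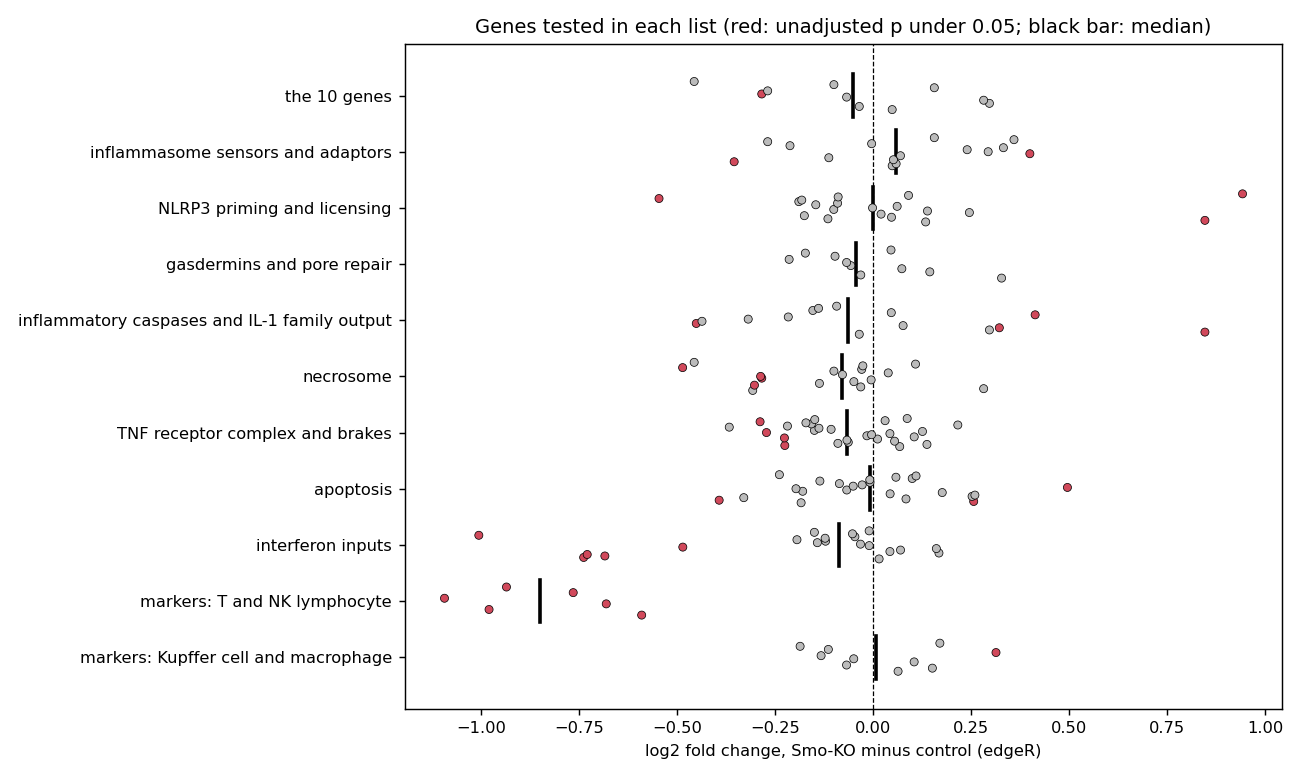
Log2 fold change (Smo-KO minus control) of each tested gene in the 10-gene set, in 8 wider lists and in markers of lymphocytes and macrophages; red points have an unadjusted p under 0.05 in edgeR's test and black bars are list medians. Medians of the death pathway lists lie between -0.09 and 0.06, with Txnip and Casp12 far to the right; all 6 T and NK lymphocyte markers tested are red and to the left, with a median of -0.85.

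Markers of other liver cells were set beside the 10 genes, since macrophages and lymphocytes transcribe many of them. The 10 Kupffer cell and macrophage markers summed to 2161 ± 278 CPM in control and 2253 ± 282 CPM in Smo-KO livers (SD, n = 4 each), with Cd5l the most abundant and Lyz2 the 1 gene at an unadjusted p under 0.05 (log2 fold change 0.31). Their sum in control mouse 1, which was low in 9 of the 10 genes, was 1983 CPM, with control mouse 2 lower still at 1886 CPM. By single marker, control mouse 1 was the lowest control in 3 of the 10 and control mouse 2 in 7. The part of macrophage RNA in the values of control mouse 1 was not tested. T and NK lymphocyte markers were lower on average in Smo-KO livers, though none of them passed edgeR's adjusted threshold. The 9 of them in the count lists summed to 50.1, 47.7, 42.5 and 58.6 CPM in control mice 1 to 4 and to 22.5, 20.4, 35.4 and 33.6 CPM in Smo-KO mice, without overlap. All 6 tested, Cd3d, Cd3e, Cd3g, Cd4, Cd8a and Nkg7, were lower in Smo-KO livers at an unadjusted p under 0.05, with Cd8a at a log2 fold change of -0.77 (adjusted p = 0.116 in edgeR's test and 0.0143 in DESeq2's) and Nkg7 the most abundant (14.5 ± 3.09 and 7.59 ± 2.44 CPM); Ncr1, Klrb1c and Gzma were too low to be tested. Control mouse 1 was not low in these markers. The part of lymphocyte RNA in the values of Mlkl, Zbp1 and the interferon genes was not tested.

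Neutrophil markers were sparse. Ly6g had 0 reads in all 8 livers, and the summed 7 markers were at 23.7 ± 5.98 CPM in control and 24.8 ± 2.74 CPM in Smo-KO livers, with Csf3r the most abundant. Dendritic cell markers summed to 15.7 ± 2.27 and 15.7 ± 3.09 CPM (Clec9a the most abundant) and B lymphocyte markers to 8.77 ± 0.952 and 8.97 ± 1.78 CPM (Cd79b). Sinusoidal endothelial markers summed to 151 ± 13.9 CPM in control and 127 ± 39.3 CPM in Smo-KO livers (Clec4g the most abundant, Pecam1 at a log2 fold change of -0.50), and stellate cell markers to 363 ± 9.87 and 326 ± 47.0 CPM (Col1a1 the most abundant, at -0.36). Smo-KO mouse 2 was the lowest of its group in 5 of the 10 genes. It also had the lowest sums of its group for macrophage (1989 CPM), T and NK lymphocyte (20.4 CPM), endothelial (82.6 CPM) and stellate cell markers (267 CPM). Smo-KO mouse 3, highest in 6 of the 10 genes, had the highest T and NK lymphocyte sum of its group (35.4 CPM). Its macrophage sum (2173 CPM) was below those of Smo-KO mice 1 (2652 CPM) and 4 (2199 CPM). The part of cell composition in the values of these mice was not tested. Cholangiocyte markers summed to 21.9 ± 3.44 and 22.8 ± 5.01 CPM (Sox9 the most abundant), and hepatocyte markers to 24569 ± 1861 and 23824 ± 704 CPM. The dendritic, cholangiocyte and hepatocyte markers with the smallest p, none under 0.05, were Xcr1 (log2 fold change -0.64), Epcam (0.42) and Apoa1 (0.18).

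**Figure D5:**
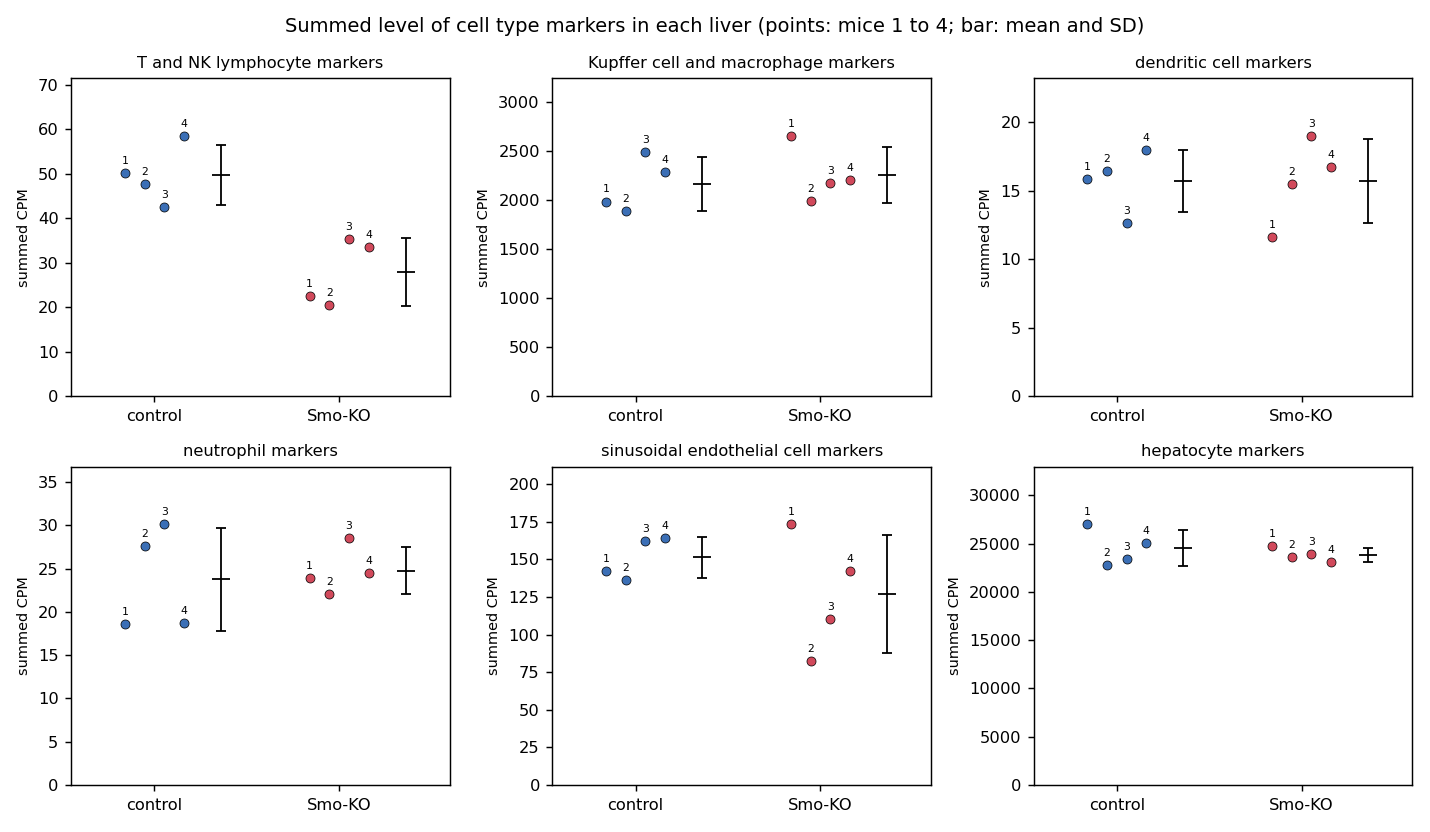
Summed CPM (linear axis from 0) of the markers of 6 cell types in each liver; points are mice 1 to 4 and the bar is the mean with the SD (n = 4). T and NK lymphocyte markers separate the groups (42.5 to 58.6 CPM in control, 20.4 to 35.4 CPM in Smo-KO livers), while the macrophage, dendritic cell, neutrophil, endothelial and hepatocyte sums overlap.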

How the data were processed

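Per the labels, total RNA was extracted with Trizol and sequenced from libraries made with a NEB Next Ultra RNA kit. The submitters' processing notes name fastp, STAR 2.7.5, featureCounts 2.0.1 and GRCm38; roles, annotation and strand setting are not given in the sources used here. The deposited files hold raw read counts per gene symbol, 1 file per liver, and end with entries named as htseq-count names them. Of these, reads on no feature (8.33% ± 0.743 in control, 9.23% ± 0.330 in Smo-KO livers) and on more than 1 gene (2.55% and 2.51%) were left out.

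The 2 groups were compared by glmQLFTest after filterByExpr and TMM (edgeR 4.0.16 under R 4.3.3), fitting genotype alone and adjusting p-values by Benjamini-Hochberg for the 12977 genes kept; DESeq2 1.42.0 was the alternative. Standard errors and 95% intervals follow from the F statistic. The procedure was tested on simulated counts. Single values were compared by exact permutation tests over 70 assignments. Gene lengths came from GENCODE M21, coordinates and promoters from RefSeq GRCm38.p6. Figures were drawn with matplotlib 3.10.9.

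The 10 genes and the wider lists were chosen with earlier results of these data known, so no p is adjusted over a list and no list is tested. Named were Smo, the 10 genes, the 3 genes of each wider list with the smallest p, and the most abundant marker of each cell type and that with the smallest p; Birc3, Ifnar1, Ifnar2, Irf7, Tlr4, Myd88, Nek7, Ninj1, Il1b, Il18, Ripk1, Fadd, Casp6 and the lymphocyte markers beyond that rule were named after values were seen. Without molecular identifiers, read floors cover counting error only. No library was a copy of another: the chi-square per degree of freedom between livers of 1 group was at least 7.76. A few genes of the lists are not reported here by name. The labels do not say what the replicate numbers stand for. Alternatives were RLE size factors, library totals, DESeq2, a looser and a stricter filter, a block for replicate numbers, leaving out each mouse, and lengths of single transcripts (the protein-coding one chosen after seeing the data).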

Additional observations from a re-analysis of the deposited data

Results flagged for a closer look

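Of 46 groups of 4 livers examined (the 10 genes, Smo, 3 library measures and 9 marker sums, in either group), the gap between the extreme mouse and its neighbour passed Dixon's 95% critical value in 2; about 2.3 would do so by chance. Smo-KO mouse 3 had a total of 8203299 reads on genes, while the remaining Smo-KO mice had 9367795 to 9543675. In control mouse 2 the B lymphocyte markers summed to 7.34 CPM, against 9.19 to 9.30 CPM in the other control mice. None of the 10 genes had such a mouse; the gap of Smo-KO mouse 3 in Casp8 fell short of the criterion.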

How the results depend on the processing

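Genes past an adjusted p of 0.05 numbered 0 in edgeR's test, 163 with DESeq2, 61 with no filter and 8 with the replicate block, and from 0 to 78 with 1 mouse left out (78 without Smo-KO mouse 1, 5 without control mouse 1, 4 without Smo-KO mouse 3). None of these fits called any of the 10 genes at that level. The number of the 10 at an unadjusted p under 0.05, 1 with all mice, was 2 with no filter (Mlkl and Zbp1) and 2 with the replicate block (Mlkl and Casp4), and ran from 0 to 2 with 1 mouse left out. It was 0 without control mouse 3, control mouse 4 or Smo-KO mouse 2, and 2 without control mouse 1, Smo-KO mouse 1 or Smo-KO mouse 3. Smo, at a log2 fold change of -0.88, had an adjusted p of 0.0957 in edgeR's test and passed 0.05 with DESeq2 (-0.87), with no filter (-0.88) and without Smo-KO mouse 1 (-1.0); with 1 mouse left out it ran from -1.0 to -0.81.

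Directions turned 6 times, in 5 of the 8 fits that left out 1 mouse. The log2 fold change of Casp1 ran from -0.17 to 0.12 over these fits (0.12 without control mouse 3, 0.00087 without Smo-KO mouse 1, 0.05 without Smo-KO mouse 2), that of Aim2 from -0.014 to 0.14 (-0.0060 without Smo-KO mouse 3 and -0.014 without Smo-KO mouse 4) and that of Ripk3 from -0.25 to 0.0043 (without Smo-KO mouse 2). Each of these fits had 1 mouse fewer; the cause was not tested further. The other 7 genes kept their sign in all fits, and no scaling moved the median of all genes by over 0.1.

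Same-numbered mice of the groups correlated in their deviations by 0.10, 0.19, 0.06 and 0.11, all above 0, and control mice 2, 3 and 4 correlated best with the Smo-KO mouse of their own number, a hint from the data. Control mouse 1 correlated better with Smo-KO mouse 4 (0.16), and the labels do not say what the numbers mean, so the mice were not treated as pairs. The longest protein-coding transcript in place of all exons, chosen after seeing the data, moved 7 of the 10 levels per kb by more than their SD, with Casp4 at 9.80 and Zbp1 at 42.3 CPM per kb.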
